A study of Mus musculus with 19 samples.

Results

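Bone marrow labelled as a double knockout of the Mediator kinases CDK8 and CDK19 was compared with marrow that carried only the Cre transgene, gene by gene, in polyadenylated RNA. The 4 DKO libraries came from mice with floxed Cdk8 alleles (Cdk8 flox/flox), the Vav-iCre transgene and a Cdk19 null allele, and the 4 VAV libraries from mice with Vav-iCre alone. They are 8 of the 19 libraries of the study. The other 11 were CDK8KO (Cdk8 flox/flox with Vav-iCre, n = 4), CDK19KO (Cdk19 null without Cre, n = 4) and wild type (WT, n = 3). The labels name the strain as C57/BL6, and the mice were 8 weeks old and untreated, with marrow taken from tibiae and femurs. DKO and VAV both carry Vav-iCre. Vav-driven Cre acts in blood cells and is known to act in endothelial cells too, whereas a null allele of Cdk19 is carried by every cell. Whether each library came from its own animal is not stated in the labels. The spread that the p-values rest on is that between libraries, and part of it may be technical. Of the 34432 genes in the table, 13976 reached a mean of 10 normalized counts across the 19 libraries and were tested.

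CDK8 and CDK19 are closely related kinases that take the same place in the kinase module of Mediator, together with cyclin C, MED12 or MED12L, and MED13 or MED13L. The module binds reversibly to the core of Mediator, the complex that carries signals from transcription factors to RNA polymerase II, and it can both restrain and promote transcription. CDK8 is known to phosphorylate transcription factors of the STAT family, through which cytokines act on blood cells. Marrow is the site where neutrophils, eosinophils, basophils, monocytes, red cells, platelets and B cells are made, and where macrophages clear aged red cells.

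Library size ranged from 14881701 to 26492553 reads assigned to genes in DKO and from 25472258 to 33010241 in VAV. The labelled tissue was checked by marker genes. Summed secondary and tertiary granule genes of neutrophils were at 593219 to 896982 normalized counts in DKO and 685525 to 1261010 in VAV, and B cell precursor genes at 22428 to 57214 in DKO and 31399 to 53805 in VAV. Erythroid genes took 3.57% of normalized counts in VAV replicate 3 and at most 0.508% in the other 7 libraries. Skeletal muscle genes took 0.137% in DKO replicate 4 and at most 0.00364% in the other 7. With DKO replicate 4 and the muscle-rich CDK19KO replicate 4 left out, 50 genes were higher and 52 lower in DKO.

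Cdk19 (ENSMUSG00000038481, chr10:40339564-40483818, plus strand) was at 1185, 1202, 1109.5 and 1196 normalized counts in DKO replicates 1 to 4, against 3703, 4304, 3020.5 and 3646 in VAV replicates 1 to 4. Values of single libraries are given in this order from here on, and fold changes were fitted to log2(normalized count + 1) and are followed by ± SE. The groups did not overlap, and the log2 fold change of DKO over VAV was -1.63 ± 0.11 (SE; limma adjusted p = 5.5e-08; exact permutation test, two-sided p = 0.0286, the smallest that 4 against 4 libraries allow). A null allele can leave transcript, and DKO held 31.98% of the VAV level. Cdk8 (ENSMUSG00000029635, chr5:146231230-146302874, plus strand) was at 881, 806, 761 and 742 in DKO, against 994, 789, 1315 and 877 in VAV, and the groups overlapped (log2 fold change -0.29 ± 0.17, exact permutation test, two-sided p = 0.143). Reads are counted along all of Cdk8, floxed segment or not, and the level therefore gives no check of the deletion. Of the other module members, Ccnc (cyclin C) had a log2 fold change of 0.10 ± 0.12, Med12 -0.09 ± 0.14, Med12l -0.33 ± 0.37, Med13 -0.24 ± 0.17 and Med13l -0.24 ± 0.13, none past the test, with limma adjusted p from 0.365 to 0.785. Against WT in place of VAV the differences of Med12, Med13 and Med13l were 0.074, 0.089 and 0.10, and that of Med12l was 0.0096 without VAV replicate 3 and -0.70 without VAV replicate 2. Med12l overlaps genes on the opposite strand, and the counting is not stated to use strand. The 26 genes of the Mediator core lay between -0.32 and 0.24, and none of them, nor of 12 genes of other transcription kinases and their cyclins such as Cdk7, Cdk9 and Cdk12, passed the test.

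Between DKO and VAV 213 genes differed (limma adjusted p under 0.05), which is 1.52% of those tested. Of these 116 were higher in DKO (0.83%) and 97 lower (0.694%). The median log2 fold change over all 13976 genes was -0.01, and 48.8% of them were above 0. By size, 81 of the higher and 57 of the lower genes differed by over 2-fold, and 27 and 22 by over 4-fold. DKO and VAV libraries did not overlap for 202 of the 213, against 8.49% of all genes tested. In a stricter reading over genotypes, all 4 DKO libraries lay above or below all 15 other libraries for 1.42% of all genes tested, and for 63 of the 116 higher and 41 of the 97 lower genes. The 4 VAV libraries stood outside all others for 1 of the 213, against 6 of all 13976 genes tested. With each of the 8 libraries left out in turn, 84 of the 213 genes were called every time, 46 higher and 38 lower. The total was 107 without DKO replicate 3, 116 without DKO replicate 4, 125 without VAV replicate 1 and 136 without VAV replicate 2. Against WT, which lacks Vav-iCre, 91 of the 213 genes were also called, 90 of them in the same direction and Prox1, described with the interactions, in the opposite one. In all, 9 of the 213 had the opposite sign. The smallest adjusted p-values beside that of Cdk19 belonged to Asprv1, Cd163, Perp, H1f0, Fcnb and Dock9, which the plot of all genes shows by name.

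**Figure D1:**
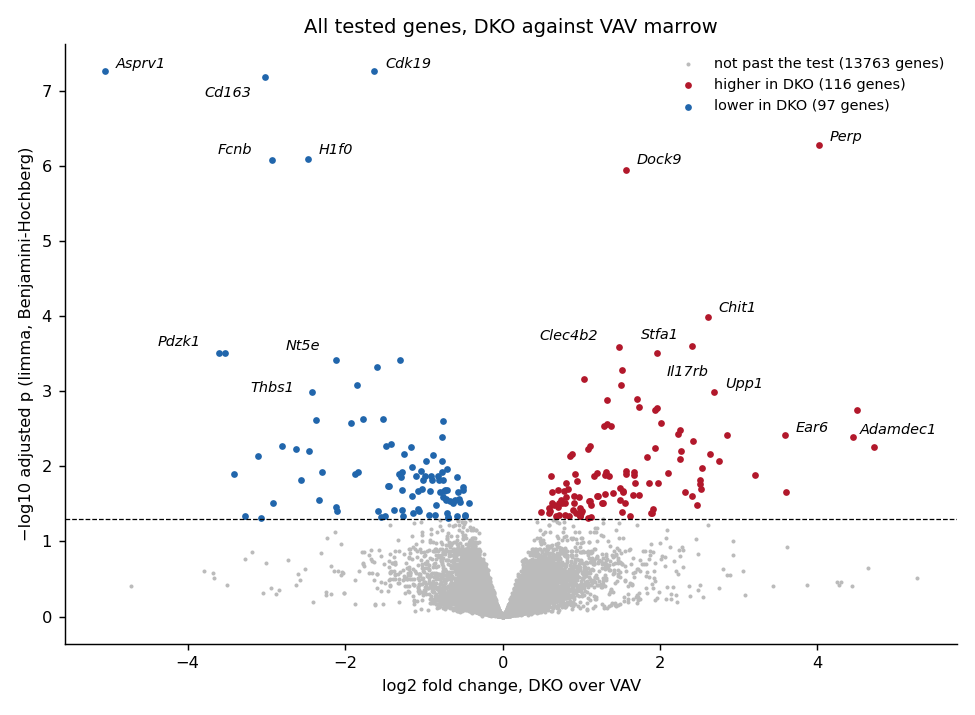
Each point is 1 of the 13976 genes tested. The x axis is the log2 fold change of DKO over VAV (n = 4 libraries each), the y axis the −log10 of the limma adjusted p, and the dashed line marks an adjusted p of 0.05. Red points are the 116 genes higher in DKO and blue points the 97 lower. Asprv1 at -5.05 and Perp at 4.02 lie far from 0 and high on the y axis, while Adamdec1 at 4.72 lies far from 0 but lower on the y axis.

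Several genes of neutrophils, the main granulocyte of marrow, fell, and Asprv1 had the largest log2 decrease of all genes tested. Asprv1 (ENSMUSG00000033508, chr6:86628164-86629710, plus strand) encodes an aspartic protease of retroviral type that is known from skin and from neutrophils. It was at 36.5, 36.4, 21.1 and 19.5 normalized counts in DKO, against 1171, 1012, 580.4 and 1098 in VAV. The highest DKO library held far less than the lowest VAV library, and the level was 33.1-fold lower in DKO (log2 fold change -5.05 ± 0.34, limma adjusted p = 5.5e-08). In the genotypes with 1 kinase lost it was 449 to 1597 in CDK8KO and 253 to 537 in CDK19KO, and in WT 570.3 to 783. Fcnb (ENSMUSG00000026835, chr2:28076378-28084885, minus strand), which encodes the lectin ficolin B of immature myeloid cells, was at 906, 925, 428 and 781 in DKO, against 4452, 6435, 4091 and 8083 in VAV. All 4 DKO libraries lay below all 15 others, and the log2 fold change was -2.93 ± 0.24 (limma adjusted p = 8.3e-07). In bulk marrow, fewer cells of a type and less RNA per cell cannot be told apart.

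Neutrophils fill their granule classes one after another as they mature. None of the 10 genes of primary granules, which are filled first in the progenitor, passed the test (median log2 fold change -0.11). Examples are Mpo, myeloperoxidase (-0.98 ± 0.36, limma adjusted p = 0.197), and Ctsg, cathepsin G (0.22 ± 0.34, limma adjusted p = 0.789). Of the 20 genes of secondary and tertiary granules 3 fell, none rose and 17 did not pass, with a median of -0.34. In counts of list members, fell and rose mean past the test. Over all genes tested 0.694% fell and 0.83% rose, with a median of -0.01. Every list count here and below is to be read beside these shares. Mmp8 (ENSMUSG00000005800, chr9:7558456-7568485, plus strand), the neutrophil collagenase, was at 12677, 20383, 14277 and 15298 in DKO, against 29816, 43376, 23922 and 32401 in VAV (log2 fold change -1.04 ± 0.20, limma adjusted p = 0.0116). Camp, the precursor of the antimicrobial peptide cathelicidin, was at 11236, 12218, 13252 and 13026 in DKO, against 17425, 18806, 22639.7 and 30913 in VAV (log2 fold change -0.82 ± 0.16, limma adjusted p = 0.0136). The DKO libraries of Camp lay close together and below all 15 other libraries, while those of Mmp8 were reached by CDK19KO, which held 17833 to 24310.4. Olfm4, a glycoprotein that marks a subset of neutrophils, had 1549.6, 2151, 1409.5 and 911 in DKO and 2949, 3435, 3183 and 3291 in VAV, without overlap (log2 fold change -1.16 ± 0.26, limma adjusted p = 0.0247). CDK19KO held 1568 to 3320 and WT 1505 to 3147, and both overlapped DKO. The Olfm4 call did not hold without DKO replicates 3 or 4 or VAV replicates 1, 2 or 4 (adjusted p up to 0.0997). Without VAV replicate 3, the library rich in erythroid transcripts, 6 of the 20 genes fell and the median was -0.51. It was -0.21 without VAV replicate 2 and -0.23 without DKO replicate 3. The mean log2 level of this list was 13.58 in DKO, 13.77 in CDK8KO, 13.39 in CDK19KO, 13.96 in VAV and 13.49 in WT. DKO was thus below VAV but not below WT, whose summed level of 633118 to 811872 lay inside the DKO range.

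Of 20 genes of mature neutrophils 4 fell, none rose and 16 did not pass (median -0.29). Besides Asprv1 they were Cxcr1, Il1b and Fpr1. Cxcr1, a receptor for neutrophil-attracting chemokines, was at 3.32, 1.73, 4.21 and 7.49 in DKO, against 75.8, 38.6, 37.5 and 78.9 in VAV (log2 fold change -3.53 ± 0.45, limma adjusted p = 3.1e-04). Its DKO libraries held few reads and lay below all 15 others, of which CDK19KO was the lowest at 11.5 to 18.7. The related receptor Cxcr2 was at 9448, 13250.1, 9284 and 8674 in DKO, against 11997, 12681, 8837 and 11193 in VAV, and did not pass (log2 fold change -0.14 ± 0.20, limma adjusted p = 0.757). Il1b, the inflammatory cytokine interleukin-1 beta, had 441, 385, 291 and 159 in DKO and 1547, 489, 1095 and 697 in VAV (log2 fold change -1.55 ± 0.38, limma adjusted p = 0.0474). CDK8KO held 371 to 1236 of Il1b and CDK19KO 383 to 666, and both overlapped DKO. Over WT its log2 fold change in DKO was -1.12 ± 0.41 (limma adjusted p = 0.191). Fpr1, a receptor for formylated bacterial peptides, was at 2048, 3334, 2332 and 1885 in DKO, against 4267, 5617, 3302 and 4168 in VAV, with DKO replicate 2 just inside the VAV range (log2 fold change -0.86 ± 0.21, limma adjusted p = 0.0446). The Il1b call did not hold without DKO replicates 2, 3 or 4 or VAV replicates 1, 3 or 4 (adjusted p up to 0.176), nor that of Fpr1 without DKO replicates 1, 3 or 4 or VAV replicates 1, 2 or 4 (adjusted p up to 0.162). The abundant calprotectin genes S100a8 (-0.22 ± 0.24) and S100a9 (-0.22 ± 0.31) and the surface marker Ly6g (-0.46 ± 0.20) did not pass. Neither did any of 13 transcription factors of granulocytes, among them Cebpa (-0.11), Cebpe (-0.24) and Gfi1 (0.12). The number of mature neutrophil genes that fell was 2 without DKO replicate 3, DKO replicate 4, VAV replicate 1 or VAV replicate 4.

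Promoter sequence is shown for Asprv1, Fcnb and Mmp8, 3 genes of this lineage whose decrease was called in every one of the 8 fits that left a library out, each from 250 bases before to 50 bases after the start of the gene, 5′ to 3′ on the gene's own strand (RefSeq, build GRCm38.p6). The start used is that of RefSeq. Gene positions in the text are from GENCODE, whose starts can differ from it, as for Mmp8. The windows are chr6:86627924-86628223, plus strand for Asprv1, chr2:28084829-28085128, minus strand for Fcnb and chr9:7558179-7558478, plus strand for Mmp8. They were searched on both strands for the C/EBP letters TTGCNNAA, the AP-1 letters TGANTCA and the GATA letters AGATAA, and capitals mark the matches.
Asprv1 promoter: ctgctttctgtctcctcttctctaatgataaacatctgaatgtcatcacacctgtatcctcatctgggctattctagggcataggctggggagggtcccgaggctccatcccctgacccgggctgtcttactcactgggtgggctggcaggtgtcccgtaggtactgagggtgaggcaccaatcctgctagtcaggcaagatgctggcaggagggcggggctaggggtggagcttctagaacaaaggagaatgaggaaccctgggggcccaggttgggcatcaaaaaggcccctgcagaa
Fcnb promoter: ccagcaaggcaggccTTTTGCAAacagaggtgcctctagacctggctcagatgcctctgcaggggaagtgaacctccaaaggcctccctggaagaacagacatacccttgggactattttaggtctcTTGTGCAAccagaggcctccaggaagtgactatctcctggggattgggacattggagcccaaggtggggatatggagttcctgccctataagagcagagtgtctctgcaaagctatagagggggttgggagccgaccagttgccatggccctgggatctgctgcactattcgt
Mmp8 promoter: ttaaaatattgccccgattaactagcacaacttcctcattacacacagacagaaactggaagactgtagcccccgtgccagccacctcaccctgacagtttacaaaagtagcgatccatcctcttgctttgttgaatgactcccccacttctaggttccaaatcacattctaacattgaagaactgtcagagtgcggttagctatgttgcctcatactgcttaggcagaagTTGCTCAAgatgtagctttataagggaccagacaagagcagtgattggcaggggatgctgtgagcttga
The Fcnb window holds 2 C/EBP matches, whose first bases lie at -235 and -123 from the start, and that of Mmp8 holds 1 at -19. The Asprv1 window holds none of the motifs. Of all 32851 promoter windows in the RefSeq set used, 10.8% hold the C/EBP letters, 7.81% the AP-1 letters and 11.2% the GATA letters. No match overlapped another in these windows.

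Other genes known from myeloid cells moved in both directions. Hcar2, a receptor for niacin and ketone bodies, was at 68.9, 96.1, 104 and 61.5 in DKO, against 269, 280.0, 221 and 223 in VAV (log2 fold change -1.60 ± 0.22, limma adjusted p = 4.8e-04). Crispld2, a secreted protein that binds bacterial lipopolysaccharide, had 828, 1118, 1134 and 1290.5 in DKO and 2136, 3511, 2339 and 2907 in VAV (log2 fold change -1.31 ± 0.17, limma adjusted p = 3.9e-04). For both, all DKO libraries were below all 15 others. Among 9 tested genes of a list of stefins and related cystatins, inhibitors of cathepsin proteases, 2 rose and none fell (median 0.56). Stfa1 was at 1065, 763, 766 and 402 in DKO, against 93.6, 107, 156 and 201 in VAV (log2 fold change 2.40 ± 0.30, limma adjusted p = 2.5e-04), and Stfa3 at 483, 345, 298 and 246 in DKO, against 62.4, 61.3, 80.2 and 78.04 in VAV (2.23 ± 0.37, limma adjusted p = 0.0037). Both were higher in every DKO library than in every VAV library, and CDK8KO replicate 2, the highest of the other genotypes, held 272 for Stfa1 and 268 for Stfa3. Stfa1 and Stfa3 lie in a cluster of near-identical copies, and reads may be shared among these copies. Vnn3, a vanin that splits pantetheine, fell to 53.1, 98.7, 37.9 and 67.4 in DKO, against 226, 215, 241 and 202 in VAV (log2 fold change -1.85 ± 0.26, limma adjusted p = 8.2e-04). DKO lay well below VAV, while WT replicate 3 at 88.2 was within the DKO range.

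Macrophage genes of red cell clearance fell in part. Of 20 genes of this class 3 fell, none rose and 17 did not pass (median -0.28). Cd163 (ENSMUSG00000008845, chr6:124304656-124330527, plus strand), the scavenger receptor that takes up hemoglobin bound to haptoglobin, was at 62.2, 51.9, 75.8 and 77.9 normalized counts in DKO, against 482, 434, 695 and 589.9 in VAV. No DKO library came near another genotype, of which the lowest held 388 (CDK8KO replicate 3), and the level was 8.08-fold lower in DKO (log2 fold change -3.01 ± 0.21, limma adjusted p = 6.5e-08). Cd5l, a secreted inhibitor of macrophage death, had 48.1, 51.9, 32.6 and 64.4 in DKO and 109.7, 112, 163 and 141 in VAV (log2 fold change -1.42 ± 0.25, limma adjusted p = 0.00506). Hmox1, the heme oxygenase that breaks down heme, was at 1736, 2915, 2481 and 2115 in DKO, against 4711, 4793, 5858 and 3331 in VAV (log2 fold change -1.01 ± 0.21, limma adjusted p = 0.0154), and its call was lost on leaving out DKO replicates 1 or 4 (largest adjusted p 0.0556). Other defining genes of the same macrophages did not pass. Spic, their transcription factor, had a log2 fold change of 0.31 ± 0.19, the iron exporter Slc40a1 0.19 ± 0.19, the adhesion molecule Vcam1 0.20 ± 0.14 and the complement gene C1qc -0.31 ± 0.20. None of the 17 monocyte genes passed, with Ly6c2 at 0.47 ± 0.30 and Fn1, fibronectin, at -1.13 ± 0.29 (limma adjusted p = 0.0567).

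Chit1 (ENSMUSG00000026450, chr1:134111242-134151540, plus strand), a chitinase of activated macrophages, moved the other way. It was at 583, 644, 299 and 574 in DKO, against 74.9, 88.97, 67.1 and 102 in VAV, and every DKO library was above all 15 others (log2 fold change 2.60 ± 0.30, limma adjusted p = 1.0e-04). Chil5, a chitinase-like protein, had 408, 468, 458 and 564 in DKO and 161, 190.3, 149 and 159 in VAV (log2 fold change 1.52 ± 0.21, limma adjusted p = 5.2e-04). Clec4b2, a C-type lectin receptor of myeloid cells, was at 565, 736, 594 and 699.9 in DKO, against 255, 254, 179.5 and 248 in VAV (log2 fold change 1.47 ± 0.18, limma adjusted p = 2.6e-04). For these genes too the DKO libraries stood above all 15 others. Adamdec1, a metalloprotease-like gene of macrophages and dendritic cells, was at 29.9, 33.8, 253 and 80.9 in DKO, against 5.35, 2.92, 0.871 and 0 in VAV, where VAV replicate 4 held no read (log2 fold change 4.72 ± 0.83, limma adjusted p = 0.00551). Its DKO values spanned a wide range, with replicate 3 the highest. In a list of 17 C-type lectin receptors, which does not hold Clec4b2, 2 fell and none rose (median -0.05). Cd209d had 0, 2.597, 5.26 and 1.499 in DKO and 14.3, 20.4, 23.5 and 37.8 in VAV (-3.11 ± 0.57, limma adjusted p = 0.00722), and Cd209a, a relative of the dendritic cell receptor DC-SIGN, had 25.7, 61.5, 60.00 and 62.9 in DKO and 113, 146, 203 and 121 in VAV (-1.50 ± 0.37, limma adjusted p = 0.0458). The Cd209a call was lost whichever of the 8 libraries was left out (adjusted p up to 0.118). These were also the 2 genes that fell among 17 dendritic cell genes, whose median was 0.03.

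The promoter windows of Cd163 and Chit1, macrophage genes that moved in opposite directions, are given on the same terms. They are chr6:124304401-124304700, plus strand, for Cd163 and chr1:134110992-134111291, plus strand, for Chit1.
Cd163 promoter: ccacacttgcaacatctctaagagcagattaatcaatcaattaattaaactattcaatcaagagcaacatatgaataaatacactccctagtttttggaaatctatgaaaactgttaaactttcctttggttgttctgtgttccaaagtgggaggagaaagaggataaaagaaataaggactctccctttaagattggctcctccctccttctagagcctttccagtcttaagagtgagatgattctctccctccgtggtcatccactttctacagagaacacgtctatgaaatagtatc
Chit1 promoter: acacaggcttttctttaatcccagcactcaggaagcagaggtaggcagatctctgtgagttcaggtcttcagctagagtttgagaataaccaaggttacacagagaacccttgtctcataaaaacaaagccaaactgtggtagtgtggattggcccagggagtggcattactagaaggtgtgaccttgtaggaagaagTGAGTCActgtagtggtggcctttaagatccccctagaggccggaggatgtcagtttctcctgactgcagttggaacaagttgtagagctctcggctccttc
Chit1 holds 1 AP-1 match, with its first base at -52 from the start, and Cd163 none of the motifs searched.

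Of 11 eosinophil genes 5 rose, none fell and 6 did not pass, and the median log2 fold change was 1.60 against -0.01 over all genes, with 11 of 11 above 0. Epx, eosinophil peroxidase, was at 1295, 943, 3156 and 2230.2 normalized counts in DKO, against 178, 828, 178 and 306 in VAV (log2 fold change 2.51 ± 0.51, limma adjusted p = 0.0154). Prg2, the major basic protein of eosinophil granules, had 1609, 1031, 8268 and 2554 in DKO and 202, 707, 336 and 673 in VAV (2.52 ± 0.53, limma adjusted p = 0.0198). Prg3, its homolog in the neighbouring locus, had 193, 113, 632 and 231 in DKO and 26.8, 45.2, 28.8 and 30.2 in VAV (2.85 ± 0.48, limma adjusted p = 0.00385). In each of these genes DKO replicate 3 was the highest of all libraries, and the DKO and VAV libraries did not overlap. Ear6, an eosinophil ribonuclease, was at 342, 274, 1952 and 616 in DKO, against 33.00, 66.4, 25.3 and 90.6 in VAV (3.58 ± 0.60, limma adjusted p = 0.00385), and Siglecf, a sialic acid receptor of eosinophils, at 559, 654, 1036 and 588 in DKO, against 382, 403, 201 and 351 in VAV (1.09 ± 0.27, limma adjusted p = 0.0491). Ear genes are near-identical copies, and Ear1 (1.60 ± 0.90) and Ear2 (0.11 ± 0.31) did not pass. The interleukin-5 receptor Il5ra (1.44 ± 0.47, limma adjusted p = 0.146) and the eotaxin receptor Ccr3 (0.94 ± 0.27, limma adjusted p = 0.104) did not pass either.

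The size of the eosinophil difference varied with the library. The summed level of the list was 5369 to 22551 normalized counts in DKO and 2815 to 4865 in VAV. It was 4236 to 8754 in CDK19KO, which overlapped DKO, 4272 to 5084 in WT and 2801 to 4100 in CDK8KO. The mean log2 level of the list was 9.23 in DKO, 8.65 in CDK19KO, 8.06 in WT, 7.49 in VAV and 7.16 in CDK8KO. With DKO replicate 3, DKO replicate 4 or VAV replicate 1 left out, 2 of the 11 genes rose, Prg3 and Ear6 among them, and the median was 0.99, 1.32 and 1.42 in that order. The calls of Epx and Prg2 did not hold without any 1 of these 3 libraries (adjusted p up to 0.0695 and 0.0759), and that of Siglecf was lost whichever of the 8 was left out (adjusted p up to 0.202). CDK19KO held 546 to 1637 for Prg2 and 44.2 to 349 for Ear6, so that its range reached that of DKO.

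Of 9 genes of basophils and mast cells 3 rose, none fell and 6 did not pass (median 0.78). Fcer1a, the chain of the IgE receptor that binds IgE, was at 298, 366, 292 and 419.7 in DKO, against 133, 113, 112 and 119 in VAV (log2 fold change 1.51 ± 0.21, limma adjusted p = 8.1e-04). Mcpt8, a protease of basophils, had 1607, 1952, 2013 and 2825 in DKO and 856, 1235, 673 and 916 in VAV (1.19 ± 0.23, limma adjusted p = 0.0121). Prss34, another basophil protease, had 1860.0, 2084, 1732 and 2632 in DKO and 822, 1335, 864 and 1218 in VAV (0.98 ± 0.24, limma adjusted p = 0.0458). All DKO libraries lay above all 15 others for each of the 3. The transcription factor Gata2 (0.09 ± 0.19), the histidine decarboxylase Hdc (-0.13 ± 0.20) and the stem cell factor receptor Kit (-0.63 ± 0.16) did not pass. The Mcpt8 call did not hold without DKO replicate 4 (adjusted p = 0.0519), nor that of Prss34 without DKO replicates 1, 2, 3 or 4 or VAV replicates 1, 3 or 4 (adjusted p up to 0.169). The number of genes that rose was 1 without DKO replicate 4, and Kit fell without DKO replicate 1 or VAV replicate 3.

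**Figure D2:**
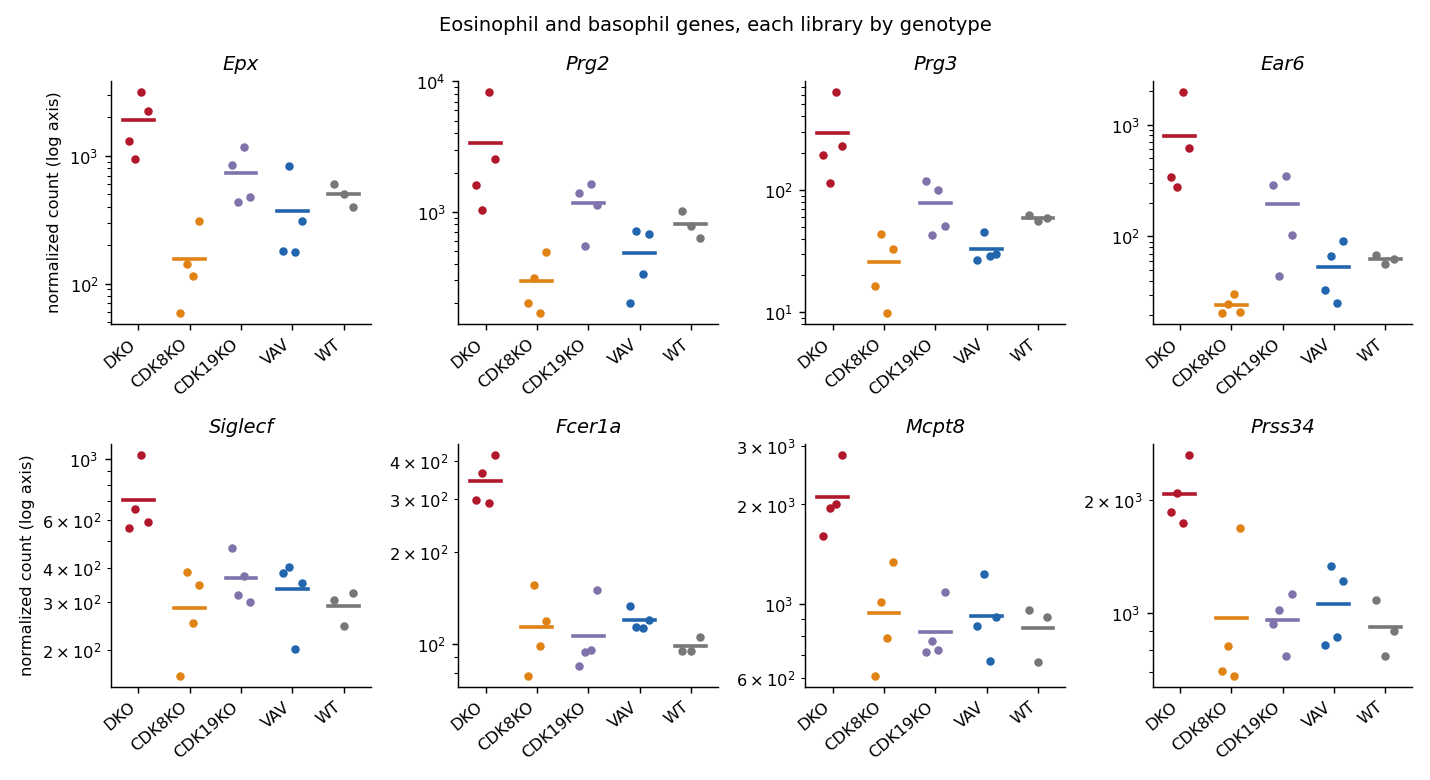
Normalized counts on a log axis for 5 eosinophil genes (Epx, Prg2, Prg3, Ear6 and Siglecf) and 3 basophil genes (Fcer1a, Mcpt8 and Prss34). Each point is 1 library, bars are group means, and the genotypes run from DKO on the left through CDK8KO, CDK19KO and VAV to WT. DKO replicate 3 is the highest point for the eosinophil genes, while the DKO libraries of the basophil genes lie together above the other genotypes.

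**Figure D3:**
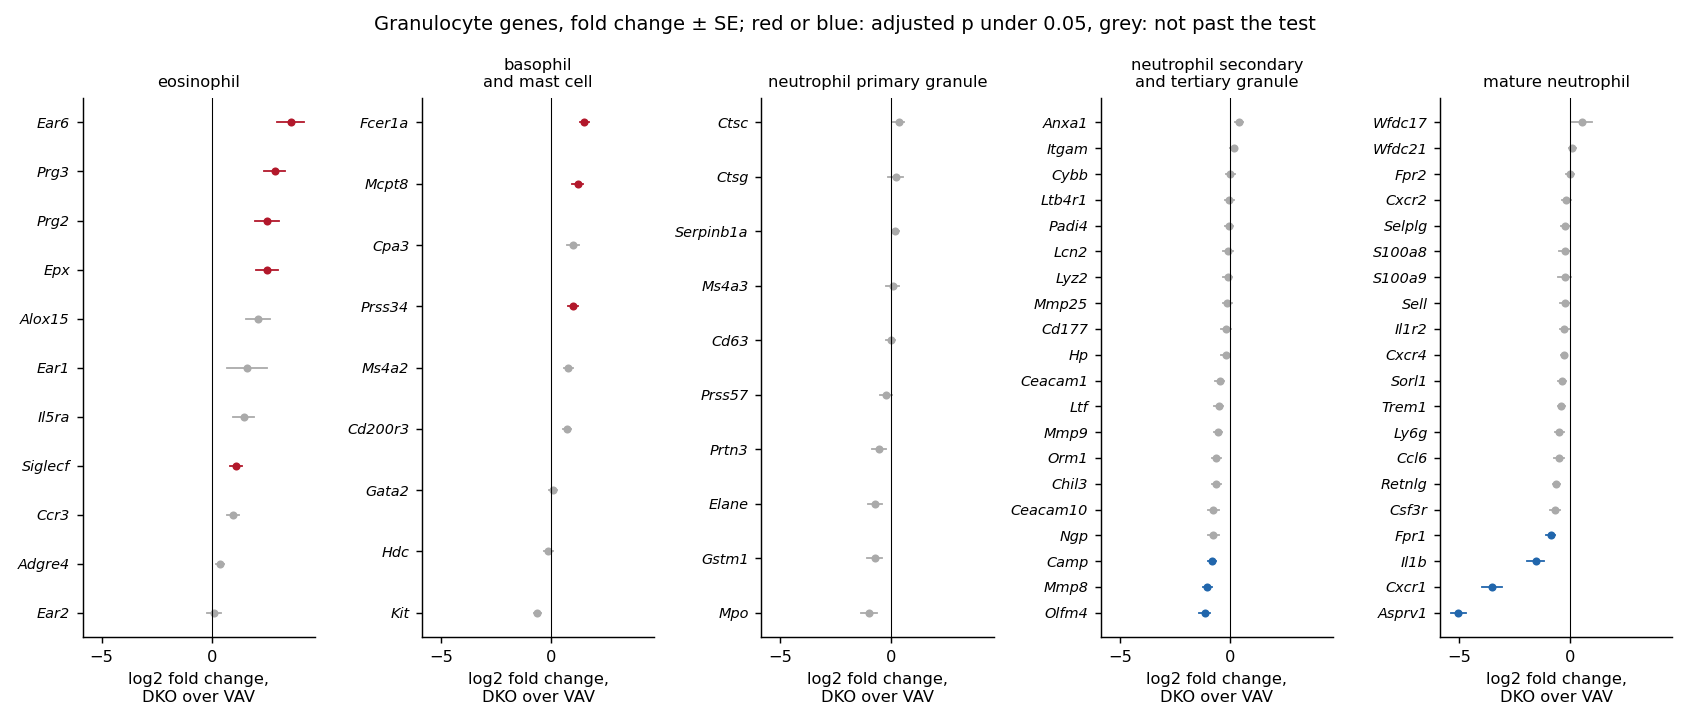
Log2 fold change of DKO over VAV with its SE for every tested gene of 5 granulocyte lists. Red or blue points passed the test and grey points did not. The eosinophil points all lie right of 0, the primary granule points include none past the test, and in the mature neutrophil list Asprv1 and Cxcr1 lie far to the left of the other genes.

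Lymphocyte genes showed few calls. All 23 T cell genes were above 0 with a median of 0.84, and 1 rose. Cd8a, the alpha chain of the CD8 coreceptor, was at 207, 487, 542 and 564 in DKO, against 128, 114, 146 and 87.3 in VAV (log2 fold change 1.83 ± 0.34, limma adjusted p = 0.00753). DKO replicate 1 was the lowest of the DKO libraries but still above every VAV library, and WT held 114 to 240.4. The summed level of the T cell list was 2572 to 7329 in DKO and 2482 to 3581 in VAV, with DKO replicate 1 inside the VAV range. Without DKO replicate 1, 8 of the 23 genes rose and the median was 1.24. Cd4 (0.31 ± 0.35) and the T cell receptor constant gene Trac (1.11 ± 0.47) did not pass.

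Receptors of natural killer cells moved in both directions. Of 20 genes 1 rose and 2 fell (median 0.33). Klra4, an activating receptor of the Ly49 family, had 4.15, 7.79, 12.6 and 14.99 in DKO and 55.3, 75.1, 47.1 and 32.7 in VAV (-2.36 ± 0.38, limma adjusted p = 0.0024), below all 15 other libraries. Ncr1, the activating receptor NKp46, had 19.9, 41.6, 67.4 and 52.5 in DKO and 99.9, 96.3, 147 and 76.4 in VAV (-1.28 ± 0.30, limma adjusted p = 0.0384). WT held 46.5 to 85.9 of Ncr1 and overlapped DKO. The log2 fold change of DKO over WT was -0.57 ± 0.33 (limma adjusted p = 0.434). Klrc1, which encodes the inhibitory receptor NKG2A, had 89.6, 267, 289 and 217 in DKO and 41.9, 74.4, 116 and 58.7 in VAV, and the groups overlapped (1.52 ± 0.37, limma adjusted p = 0.041). The Ncr1 call did not hold without DKO replicates 1, 2 or 4 or VAV replicates 1, 2 or 3 (adjusted p up to 0.0868), and that of Klrc1 did not hold without DKO replicates 2, 3 or 4 or VAV replicates 1, 2 or 4 (adjusted p up to 0.165). Klra and Klrc genes have near-identical copies that can share reads. The cytotoxic genes Gzmb (0.56 ± 0.34) and Prf1 (-0.18 ± 0.35) did not pass, nor did the transcription factor Eomes (0.15 ± 0.45).

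Among the B lineage lists, constant regions of antibodies and a plasma cell gene gave calls. Variable segments are not described here. None of 18 genes of B cell precursors (median 0.03) or 23 of mature B cells (median 0.05) passed. Among 12 immunoglobulin constant genes 1 rose and 2 fell (median -0.37). Ighg1 was at 813, 1118, 445 and 640.0 in DKO, against 69.6, 151, 158 and 191 in VAV (2.41 ± 0.53, limma adjusted p = 0.0248), and Ighg2c at 115, 131, 21.1 and 13.5 in DKO, against 243, 811, 338 and 926 in VAV (-3.41 ± 0.67, limma adjusted p = 0.0126). These heavy chain genes of 2 antibody subclasses lie 36308 bases apart on chromosome 12 and moved in opposite directions. CDK19KO held 111 to 551 of Ighg2c and overlapped DKO. The log2 fold change of Ighg2c in DKO over WT was -2.54 ± 0.73 (limma adjusted p = 0.0761). Iglc2, a light chain gene, had 307, 465, 349 and 809 in DKO and 948, 1079, 1138 and 1622 in VAV (-1.38 ± 0.33, limma adjusted p = 0.0376). Their sequences are close to those of other constant genes, among which reads may be split. The calls did not hold without DKO replicates 1, 2 or 4 or VAV replicates 1 or 2 for Ighg1 (adjusted p up to 0.0956), DKO replicates 3 or 4 for Ighg2c (up to 0.0566) and DKO replicates 1, 2 or 3 or VAV replicates 1, 2, 3 or 4 for Iglc2 (up to 0.144). Of 14 plasma cell genes 1 rose, Prdm1, which encodes the transcription factor Blimp-1, at 134, 177, 141 and 184 in DKO, against 66.9, 92.6, 75.8 and 103 in VAV (0.91 ± 0.21, limma adjusted p = 0.0305). That call did not hold without DKO replicates 2, 3 or 4 or VAV replicates 1, 2 or 3 (adjusted p up to 0.119).

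All 23 genes of megakaryocytes and platelets were below 0, with a median of -1.07, and 1 fell. Thbs1 (ENSMUSG00000040152, chr2:118111876-118127133, plus strand), the thrombospondin stored in platelets and made by macrophages, was at 1101, 2192, 1391 and 1799 in DKO, against 9260.0, 6603, 14610.0 and 5655 in VAV. All DKO libraries were below all 15 others, and the log2 fold change was -2.43 ± 0.35 (limma adjusted p = 0.00102). The chemokine Ppbp (-2.24 ± 0.62, limma adjusted p = 0.0904) and Gp1ba, the platelet receptor for von Willebrand factor (-2.05 ± 0.60, limma adjusted p = 0.108), did not pass. The summed level of the list, which includes Thbs1, was 16984 to 25522 in DKO and 27063 to 71866 in VAV. CDK8KO held 23758.5 to 52897 and overlapped DKO, while CDK19KO held 26793 to 67341 and WT 36992 to 42423. In the mean log2 level of the list, relative to the VAV mean, DKO and VAV overlapped, with DKO at -1.38 to -0.71 and VAV replicate 2 at -1.30. Its median was -0.59 without VAV replicate 3 and -1.71 without VAV replicate 2, when 3 genes fell. Lrrc32, which holds latent TGF-beta on the surface of platelets and regulatory T cells, had 45.6, 69.3, 42.1 and 65.9 in DKO and 548, 125, 317 and 148 in VAV (-2.11 ± 0.50, limma adjusted p = 0.0396). Its call did not hold without DKO replicates 1, 2, 3 or 4 or VAV replicates 1 or 3 (adjusted p up to 0.138). In a list of 17 genes of thrombospondin and TGF-beta signalling Thbs1 alone fell (median -0.12), and the receptors Tgfbr1 (0.01 ± 0.12) and Tgfbr2 (-0.01 ± 0.16) did not pass.

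The lists of this paragraph gave at most 2 calls each. No gene passed among 28 erythroid genes (median -0.54, and 0.21 without VAV replicate 3), 13 of heme synthesis (-0.34), 19 of stem and progenitor cells (-0.26), 11 of MHC class II (-0.14), 26 of stroma, bone and vessels (-0.14), 27 of glycolysis and hypoxia (-0.12), 18 of Wnt signalling (0.02) and 16 interferon-induced GTPases (0.25). Skeletal muscle genes, summed, were at 315 to 30501 in DKO and 182 to 455 in VAV. Their 16 members had a median of 2.15, or 0.56 without DKO replicate 4, and none passed. Cxcr1 was the only call among 19 genes of chemokines and marrow retention (median -0.21), Il1b among 23 inflammatory genes of NF-kappaB (0.06), and Chit1 and Fcnb were those among 8 chitinase and ficolin genes (-0.12). Chil5, which rose, is not in the list of chitinase and ficolin genes.

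**Figure D4:**
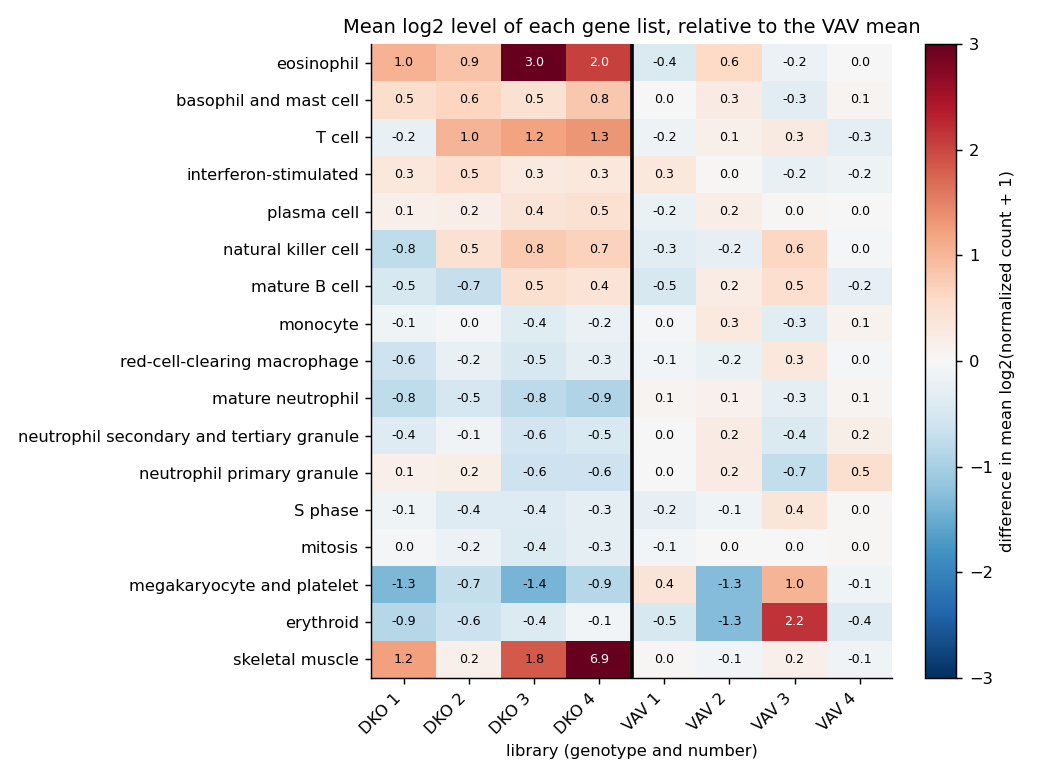
Mean log2(normalized count + 1) over each gene list in every DKO and VAV library, as the difference from the mean of the 4 VAV libraries. Columns are libraries, DKO left of the line and VAV right of it, rows are 17 lists, and colour is capped at 3 in either direction. DKO replicates 3 and 4 are highest for eosinophil genes, VAV replicate 3 stands out for erythroid genes and DKO replicate 4 for skeletal muscle.

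Among genes outside the cell type lists, Perp (ENSMUSG00000019851, chr10:18845020-18857073, plus strand), a membrane protein of cell junctions and a target of p53, had the smallest adjusted p of the genes that rose. It was at 384, 484, 485 and 468 in DKO, against 20.5, 25.5, 26.1 and 38.6 in VAV (log2 fold change 4.02 ± 0.32, limma adjusted p = 5.2e-07). The DKO libraries lay close together and 16.2-fold above VAV, and the highest library of the other genotypes held 58.0. Of 27 p53 targets 2 rose and none fell (median 0.04). The other was Aen, a nuclease of apoptosis, with 596, 342, 473 and 504 in DKO and 253, 225, 295 and 307 in VAV (0.80 ± 0.18, limma adjusted p = 0.026), whose call did not hold without DKO replicates 1, 3 or 4 or VAV replicates 1 or 2 (adjusted p up to 0.0924). Cdkn1a (0.17 ± 0.31), Mdm2 (0.04 ± 0.14) and Ccng1 (0.17 ± 0.11), targets of p53 in most tissues, did not pass. Of 15 genes of the Bcl2 family 2 rose, both of them copies of the survival factor Bcl2a1, whose near-identical sequences can share reads. Bcl2a1a had 48.1, 58.9, 81.1 and 76.4 in DKO and 17.8, 10.2, 16.6 and 8.39 in VAV (2.27 ± 0.41, limma adjusted p = 0.00626), and Bcl2a1b had 101, 178, 172 and 160.4 in DKO and 24.1, 32.8, 74.1 and 36.1 in VAV (1.94 ± 0.30, limma adjusted p = 0.00178). Neither overlapped with any other genotype, whereas Bcl2 (0.11 ± 0.20) and Mcl1 (-0.17 ± 0.10) did not pass.

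H1f0 (ENSMUSG00000096210, chr15:79028450-79030504, plus strand), a linker histone that accumulates in cells that have stopped dividing, fell to 171, 151, 120.0 and 186 in DKO, against 757, 828, 751 and 1199 in VAV (log2 fold change -2.48 ± 0.20, limma adjusted p = 8.1e-07). The lowest of the 15 other libraries held 628. It was the only one of 7 linker histones to pass (median -0.16), with H1f2 at -0.20 ± 0.17 and H1f4 at -0.11 ± 0.20. None of 30 genes of S phase (median -0.31, 1 above 0) or 30 of mitosis (median -0.24, 4 above 0) passed. Summed mitosis genes were at 93771 to 125792 in DKO, against 129876 to 148502 in VAV and 114894 to 121838 in WT. In their mean log2 level DKO and VAV overlapped, with DKO replicate 1 at 11.46 and VAV replicate 1 at 11.42.

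Enzymes and receptors of nucleosides moved in both directions. Of 16 genes 2 rose and 1 fell (median 0.00). Upp1, uridine phosphorylase, was at 530.4, 564, 493 and 397 in DKO, against 98.99, 67.8, 54.03 and 89.8 in VAV (2.69 ± 0.39, limma adjusted p = 0.00102), above all 15 others. Nt5e, the surface enzyme CD73 that makes adenosine, had 53.9, 102, 151 and 144 in DKO and 713, 521, 337 and 345 in VAV (-2.11 ± 0.28, limma adjusted p = 3.9e-04), below all 15 others. WT held 184 to 294 of Nt5e, below every VAV library. Its log2 fold change of DKO over WT was -1.22 ± 0.30 (limma adjusted p = 0.0393). Adora3, an adenosine receptor, had 181, 171, 377 and 192 in DKO and 73.1, 67.1, 23.5 and 93.98 in VAV (1.90 ± 0.46, limma adjusted p = 0.0424), with DKO replicate 3 the highest. The Adora3 call did not hold without DKO replicates 1, 2, 3 or 4 or VAV replicates 1, 2 or 3 (adjusted p up to 0.177). The intracellular enzymes Ada (0.19 ± 0.24) and Adk (-0.35 ± 0.16), which clear adenosine, did not pass.

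Immediate early genes, which respond to stimuli within minutes, were lower in part. Of 25 genes 3 fell and none rose (median -0.31). Fos, a subunit of AP-1, was at 299.6, 368, 513 and 585 in DKO, against 3480.0, 1332, 936 and 1262 in VAV (-1.84 ± 0.36, limma adjusted p = 0.0117), and VAV replicate 1 was the highest of all libraries. Egr1, a zinc finger transcription factor, had 58.9, 46.7, 105 and 102 in DKO and 243, 230.4, 223 and 138 in VAV (-1.45 ± 0.30, limma adjusted p = 0.0182). Dusp1, a phosphatase of MAP kinases, had 1762, 1809, 2031 and 2512 in DKO and 7054, 3719.8, 3319 and 4478 in VAV (-1.15 ± 0.22, limma adjusted p = 0.0102). Without VAV replicate 1 the calls of Fos and Dusp1 held, while Egr1 was not called without DKO replicates 1 or 2 or VAV replicates 1 or 2 (adjusted p up to 0.0653). Jun (-0.43 ± 0.37), Atf3 (-0.19 ± 0.29) and Myc (-0.06 ± 0.18) did not pass. The heat shock gene Hspa1b, which has the near-identical copy Hspa1a, had 16.6, 12.98, 24.2 and 20.98 in DKO and 356, 68.5, 60.1 and 56.2 in VAV (-2.33 ± 0.53, limma adjusted p = 0.0283). It was the 1 member of 14 heat shock genes to pass the test (median -0.24). Another member had a larger decrease, with a log2 fold change of -3.18, but did not pass. Hspa1b was not called without DKO replicates 1, 2, 3 or 4 or VAV replicate 1 (adjusted p up to 0.0752). VAV replicate 1 held the highest values of both Fos and Hspa1b among all 19 libraries.

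Cytokine signalling and interferon genes gave few calls. Among 21 STAT and SOCS genes 1 rose and 1 fell (median -0.01). Socs2, an inhibitor of cytokine receptors, had 123, 132, 182 and 202 in DKO and 77.6, 81.7, 82.8 and 72.2 in VAV (0.98 ± 0.23, limma adjusted p = 0.0354). Bcl6, a repressor that opposes some STAT targets, had 1752, 2048, 1766 and 1725 in DKO and 2741, 3012, 2354 and 2632 in VAV (-0.56 ± 0.12, limma adjusted p = 0.0275). These calls did not hold without DKO replicates 3 or 4 or VAV replicates 1, 2, 3 or 4 for Socs2 (adjusted p up to 0.141), and without DKO replicates 1, 3 or 4 or VAV replicates 1, 2 or 4 for Bcl6 (up to 0.095). Stat3 (-0.12 ± 0.18) and Stat5a (-0.35 ± 0.12) did not pass. None of 34 interferon-stimulated genes passed, although 29 were above 0 (median 0.39), such as Oas1g (0.92 ± 0.46) and Ifitm3 (0.70 ± 0.25). Among 24 cytokine receptors none passed, with Il9r at 1.71 ± 0.44 (limma adjusted p = 0.0609). The receptor of interleukin-25, Il17rb, is not in that list, and it rose to 199, 131, 274 and 243 in DKO, against 52.6, 51.8, 61.9 and 41.96 in VAV (1.96 ± 0.25, limma adjusted p = 3.1e-04), above all 15 others.

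Metabolic and adhesion genes added single changes. Of 28 genes of cholesterol and fatty acid synthesis 2 rose and none fell (median 0.23). Insig1, a sensor that restrains sterol synthesis, had 899, 1111, 846 and 803 in DKO and 676, 508, 464 and 611 in VAV (0.70 ± 0.15, limma adjusted p = 0.0204). Cyp51, the lanosterol demethylase, had 608, 677, 582 and 632 in DKO and 364, 352, 315 and 428 in VAV (0.78 ± 0.17, limma adjusted p = 0.0211). Every DKO library of these genes was above all 15 others, but the calls did not hold without DKO replicate 2 or VAV replicates 2 or 3 for Insig1 (adjusted p up to 0.0711) and DKO replicates 2 or 4 or VAV replicates 1, 2 or 3 for Cyp51 (up to 0.0621). The Notch ligand Jag1 had 249, 262, 199 and 232 in DKO and 148, 140.0, 139 and 141 in VAV (0.72 ± 0.17, limma adjusted p = 0.0441), the only call among 17 Notch genes (median -0.06). It was lost whichever of the 8 libraries was left out (adjusted p up to 0.11). The cystine importer Slc7a11 had 431, 563, 569.5 and 547 in DKO and 1447, 913, 959 and 621 in VAV (-0.84 ± 0.20, limma adjusted p = 0.0325), 1 of 28 genes of the stress and unfolded protein response to pass (median -0.02). Its call did not hold without DKO replicates 1, 2, 3 or 4 or VAV replicates 1, 2 or 3 (adjusted p up to 0.104).

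The rule for named genes also gave genes that no list held. Dock9 (ENSMUSG00000025558, chr14:121542046-121797837, minus strand), an exchange factor for the GTPase CDC42, was at 1448, 1513, 1211 and 1178 in DKO, against 468, 403, 440.1 and 480.0 in VAV (1.57 ± 0.13, limma adjusted p = 1.1e-06). The change was modest in size, but the DKO libraries were far above all 15 others, of which the highest held 480.0. Tbc1d4, a Rab GTPase regulator of glucose transporter traffic, had 456, 627, 589.5 and 525 in DKO and 307, 289.5, 224 and 251 in VAV (1.03 ± 0.14, limma adjusted p = 7.0e-04). Lipg, endothelial lipase, had 1160.3, 1334, 1129.5 and 559 in DKO and 168, 160.4, 124 and 351 in VAV (2.42 ± 0.42, limma adjusted p = 0.00467). Aspa, which splits acetylaspartate, had 68.9, 77.04, 264 and 123 in DKO and 24.97, 10.2, 28.8 and 9.23 in VAV (2.75 ± 0.51, limma adjusted p = 0.00859), and the mucin Muc20 had 37.3, 68.4, 44.2 and 148 in DKO and 16.9, 16.04, 5.23 and 7.55 in VAV (2.53 ± 0.48, limma adjusted p = 0.0105). For these 5 genes too, no other library reached the DKO range. Plekha6, a pleckstrin homology domain protein, had 393, 108, 147 and 327 in DKO and 25.9, 34.3, 65.4 and 31.05 in VAV (2.50 ± 0.52, limma adjusted p = 0.0171), and Adamtsl1, a secreted matrix protein, had 83.00, 118, 18.9 and 52.5 in DKO and 2.68, 1.46, 4.36 and 9.23 in VAV (3.60 ± 0.78, limma adjusted p = 0.022). CDK8KO libraries reached the DKO range for both, and for Adamtsl1 so did CDK19KO and WT libraries. The calls did not hold without DKO replicates 1 or 4 or VAV replicates 1, 2 or 4 for Plekha6 (adjusted p up to 0.067) and DKO replicates 1, 2 or 4 or VAV replicates 1 or 2 for Adamtsl1 (up to 0.0787).

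Among the lower genes of this kind, Pdzk1, a scaffold protein that holds transporters and scavenger receptors at membranes, was at 1.66, 5.19, 5.26 and 2.998 in DKO, against 45.5, 39.4, 99.3 and 46.2 in VAV (-3.60 ± 0.46, limma adjusted p = 3.1e-04). The zinc importer Slc39a4 was at 9.96, 22.5, 10.5 and 10.5 in DKO, against 66.00, 51.8, 46.2 and 41.1 in VAV (-1.92 ± 0.31, limma adjusted p = 0.00262). Both lay below all 15 other libraries in all 4 DKO libraries. Pdzk1 overlaps Cd160 and Gpr89 on the opposite strand. Genes on the opposite strand, given in parentheses, also overlap Il17rb (Actr8), Cyp51 (Akap9), Dusp1 (Ergic1), Muc20 (Muc4), Cdk19 (Cdk19os) and Il1b (Il1bos), and reads of such pairs may not have been told apart.

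The interaction tests whether the log2 effect of losing Cdk19 was the same with and without Cdk8. It was (DKO minus CDK8KO) minus (CDK19KO minus WT), and compares loss of Cdk19 on a background with Cdk8 deletion and Vav-iCre with loss of Cdk19 on a background without them. It passed for 21 genes, or 0.15% of those tested, 13 with a positive and 8 with a negative interaction, and 18 of them were also called in DKO against VAV. The most negative of the named genes was Asprv1 (-3.91 ± 0.49 on the log2 scale, SE; limma adjusted p = 8.0e-04), whose log2 fold change was -0.18 in CDK8KO against VAV and -0.96 in CDK19KO against WT. H1f0 had -2.68 ± 0.30 (limma adjusted p = 2.8e-04), Cd163 -2.38 ± 0.31 (8.0e-04) and Fcnb -2.37 ± 0.36 (0.00471). In these 4 genes no library of either single mutant reached down to the DKO range.

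The positive side held Chit1 (3.30 ± 0.44, limma adjusted p = 0.0012), Perp (3.14 ± 0.47, 0.0047), Clec4b2 (1.78 ± 0.27, 0.00471) and Dock9 (1.78 ± 0.20, 2.8e-04). Chit1 was at 299 to 644 in DKO, 61.2 to 184 in CDK8KO and 29.03 to 45.9 in CDK19KO, against 67.1 to 102 in VAV and 62.5 to 71.3 in WT. Perp was at 384 to 485 in DKO, 26.2 to 58.02 in CDK8KO and 17.8 to 54.9 in CDK19KO, against 20.5 to 38.6 in VAV and 20.5 to 34.4 in WT. With each of the 15 libraries of the interaction left out in turn, 10 of the 21 genes were called every time, the 8 above with Spata13 and H2bc24. The number of genes was 12 without CDK19KO replicate 2, 10 without WT replicate 3 and 11 without the muscle-rich libraries DKO replicate 4 and CDK19KO replicate 4. WT and VAV did not overlap for Cd163, at 434 to 695 in VAV and 743 to 923 in WT, and for Clec4b2, at 179.5 to 255 in VAV and 265 to 329.9 in WT. Il4ra, the alpha chain of the interleukin-4 receptor, had an interaction of 1.32 ± 0.23 (limma adjusted p = 0.0165) but was at 1398 to 1679 in DKO, against 1196 to 1588 in VAV and 1864 to 2432 in WT. Prox1, a transcription factor of lymphatic vessels, was at 14.7 to 22.5 in DKO and 2.19 to 4.35 in CDK8KO, against 332 to 941 in CDK19KO, 3.57 to 8.02 in VAV and 518 to 848 in WT, so that the libraries with and without Vav-iCre lay far apart. H2bc24, a histone gene with near-identical copies, had an interaction of -7.52 ± 1.17 (limma adjusted p = 0.00611) and was at 481, 19.04, 11.6 and 35.97 in DKO, against 186, 327, 675 and 944 in VAV, 435 to 947 in CDK19KO and 32.6 to 57.2 in WT. Il4ra, Prox1, H2bc24 and Spata13 fall outside the rule for named genes and were chosen after their values were seen. The Il4ra interaction did not hold without CDK19KO replicate 2, WT replicate 1 or WT replicate 3 (adjusted p up to 0.0825), nor that of Prox1 when DKO replicate 1 or 4, CDK19KO replicate 2, 3 or 4 or any 1 of the 3 WT libraries was left out (up to 0.1).

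**Figure D5:**
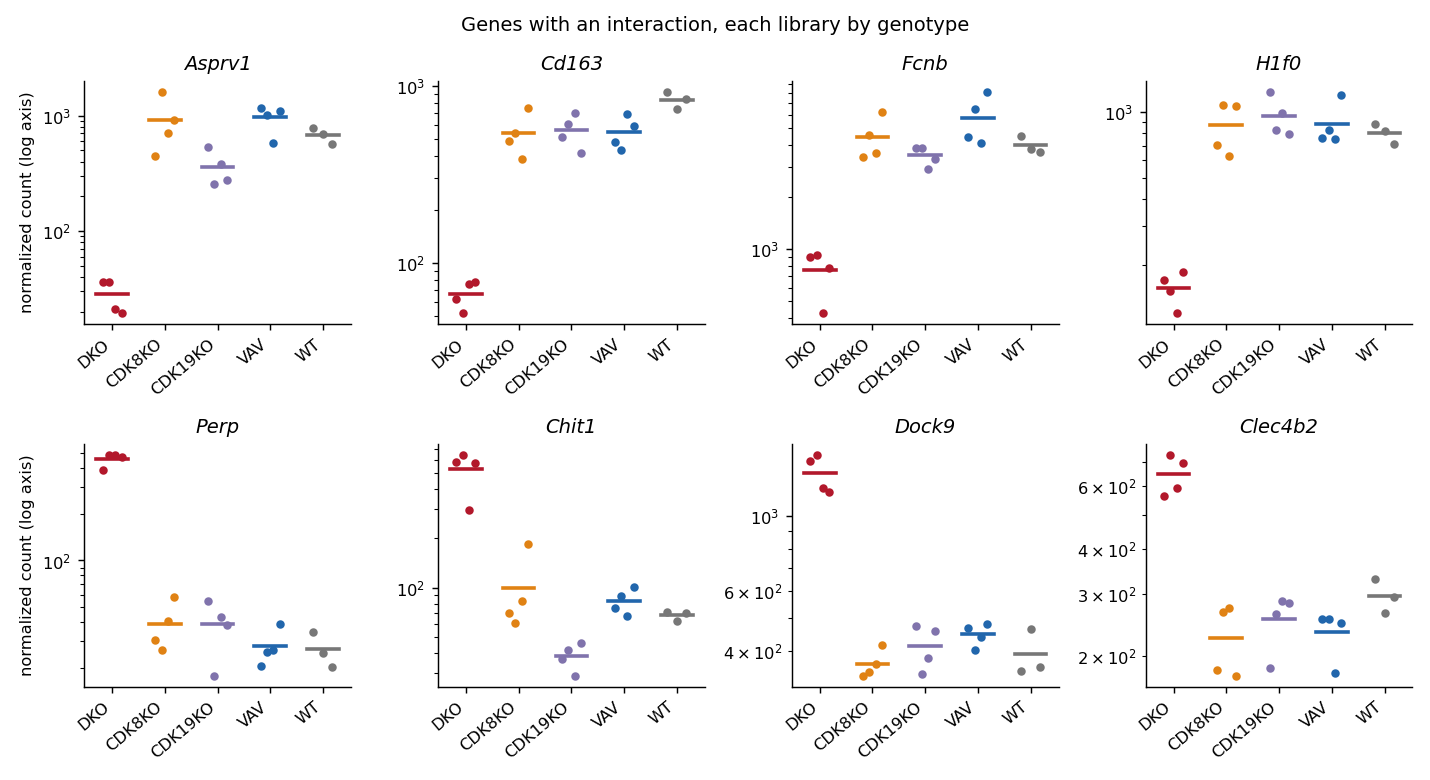
Normalized counts on a log axis for 4 genes with a negative interaction (Asprv1, Cd163, Fcnb and H1f0) and 4 with a positive one (Perp, Chit1, Dock9 and Clec4b2). Each point is 1 library, bars are group means, and genotypes run from DKO on the left to VAV and WT on the right. The 4 DKO points of every gene lie apart from the 15 other libraries.

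The places of the called genes were compared with those of the other genes. Within 200000 bases of another called gene were 21 of 213 called genes (9.86%) and 8.46% of the other genes with a position. These formed 12 pairs, of which 2 overlap and 3 come from 1 cluster. Among the pairs were Prg3 and Prg2 on chromosome 2, Stfa3 and Stfa1 on chromosome 16 and Cd209a and Cd209d on chromosome 8, which belong to families given above, and the cluster of Plekha6, Sox13 and Ren1 on chromosome 1, of which Sox13 and Ren1 were chosen for their place.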

How the data were processed

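Polyadenylated RNA of whole mouse marrow was sequenced. The deposited table holds normalized counts per gene (unit: signal, gene counts divided by a size factor); per the submitters' processing notes the tools were Salmon 1.4.0 and DESeq2 and the build mm10, while the strand setting is not given in the sources used here. In all 19 libraries 100% of values were whole multiples of the library's smallest step (tolerance 0.001), so reads could be recovered: 14881701 to 33010241 per library, where 3 reads is the limit that a count of 0 allows. Intervals and floors cover counting error only.

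Genes with a mean of at least 10 were tested on log2(normalized count + 1) with limma 3.58.1 in R 4.3.3 (trend on), all 5 genotypes in 1 fit sharing 1 estimate of spread, with Benjamini-Hochberg adjustment over 13976 genes and a threshold of 0.05. Fold changes on this scale understate low genes. Alternatives were edgeR 4.0.16 and DESeq2 1.42.0 on recovered reads, TMM scaling, other pseudocounts and filters, other controls and fits, a replicate block, an erythroid covariate and each library left out. Positions are from the GENCODE annotation of GRCm38, matched for 13965 genes; promoter windows were matched by symbol.

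The gene lists and the members were chosen with earlier results of these data known. Named genes were those called without overlap of DKO and VAV and with a mean of at least 50 in either group, the 15 largest and the 10 of smallest adjusted p per direction, leaving out predicted, segment, sex-linked and pseudogenes, plus every called list member and the kinase module. 1 gene that the rule named is not reported here. List members that did not pass were picked as examples after their values were seen.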

Additional observations from a re-analysis of the deposited data

Results flagged for a closer look

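A single library stood apart from the rest of its group for 10 of 152 combinations of a named gene and a genotype, DKO or VAV, where chance alone sets about 1 in 20 apart. The low DKO libraries were replicate 1 at 25.73 normalized counts of Cd209a and at 430.8 of Slc7a11. The high ones were DKO replicate 2 at 22.51 of Slc39a4 and 2048 of Bcl6, and DKO replicate 3 at 376.9 of Adora3. In VAV, replicate 1 was high at 3480 for Fos and 355.8 for Hspa1b, replicate 3 was high at 99.35 for Pdzk1 and low at 179.5 for Clec4b2, and replicate 4 was high at 1199 for H1f0.

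The effect of losing Cdk19 differed between marrow with Cdk8 deletion and Vav-iCre and marrow without either for 13 of the named genes, by the interaction in limma (adjusted p under 0.05 over all genes tested). The interaction was negative for Asprv1 (-3.909), H1f0 (-2.676), Cd163 (-2.382), Fcnb (-2.366), Vnn3 (-2.307), Nt5e (-2.091) and Cd5l (-1.872), on the log2 scale. It was positive for Dock9 (1.776), Clec4b2 (1.781), Il17rb (1.921), Perp (3.143), Chit1 (3.304) and Lipg (3.392). With each of the 15 libraries of the contrast left out in turn, the call held in 2 of 15 fits for Cd5l, 3 for Il17rb and Nt5e, 7 for Lipg, 14 for Vnn3 and 15 for the other 8 genes. Cdk8 deletion and Vav-iCre cannot be told apart in this contrast, since DKO and CDK8KO carry both and CDK19KO and WT neither.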

How the results depend on the processing

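Against 213 changed genes (116 higher, 97 lower), DESeq2 called 504 (261 and 243), a fit of DKO and VAV alone 99 (61 and 38), a fit with the erythroid level as a covariate 615 (227 and 388), and a fit without the 2 muscle-rich libraries 102 (50 and 52). With WT in place of VAV 197 genes were higher and 96 lower. With each library left out the number changed ran from 107 to 226, higher from 56 to 108 and lower from 46 to 123, the fewest changed being 107 without DKO replicate 3, 116 without DKO replicate 4, 125 without VAV replicate 1 and 136 without VAV replicate 2. The 21 interactions were 98 by DESeq2, 11 without the muscle-rich libraries and 10 to 21 with a library left out. The cause of these differences was not tested. TMM scaling, either pseudocount, either filter and edgeR gave 173 to 217 changed genes. For named genes 1266 of the alternative values kept direction and call, 273 lost the call and 4 changed sign, none of them called: Med12l, which ran from -0.70 without VAV replicate 2 to 0.0096 without VAV replicate 3, and Med13 at 0.089, Med13l at 0.10 and Med12 at 0.074 with WT in place of VAV.

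Replicate numbers did not pair the samples: the deviations of same-numbered DKO and VAV libraries correlated at -0.08, 0.03, 0.13 and -0.11, and replicates 1, 2 and 4 of DKO did not correlate best with their own number. With the replicate block, 196 genes were called (103 higher, 93 lower), 180 of the 213 among them, and 14 interactions. Cdk19 was at -1.63 and Cdk8 at -0.29 with the block.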
